A study of Mus musculus with 21 samples.

Results

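Mouse formative stem cells (FS cells) grown in culture were compared with the epiblast of embryonic day 5.5 (E5.5), across every gene with enough counts to test. The comparison takes 9 of the 21 samples of the study: 6 FS samples and 3 E5.5 epiblasts, chosen by their sample labels. The 6 FS samples come from 2 lines, of which line 1 was sampled at passages 10, 11 and 18 and line 2 at 12, 13 and 16, all kept in a medium called A3XR. The 3 E5.5 samples are single epiblasts numbered 1 to 3, without culture. The other 12 samples, used here to share the estimate of spread and as levels set beside the comparison, are 3 epiblasts each of E5.0 and E6.0 and 3 passages each of epiblast stem cells, named E14, in media called AF and AFX. No group carries a genotype or added agent in its labels, and the labels name neither strain nor sex nor the origin of the FS lines. The E6.0 epiblasts are called E6.5 in another label.

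Passages of a line are not separate derivations, so the FS samples stand for 2 lines, and p-values measure the spread between these passages and embryos. Each cultured sample was 1000 cells and each embryonic sample was 1 epiblast, both prepared as total RNA with the same kit. Amount of starting material, culture and embryo origin therefore changed together between the groups and cannot be told apart. In bulk samples of this kind, fewer cells of a type and less RNA per cell cannot be told apart either.

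The epiblast is the pluripotent tissue that forms all of the embryo proper. Around implantation it leaves the naive state of embryonic stem cells, gains DNA methylation and becomes able to respond directly to signals for the germ line and the germ layers, a phase called formative pluripotency, before it is primed for gastrulation. In the embryo NODAL, FGF, WNT and BMP signals from the epiblast and its extraembryonic neighbours act on it at this time, whereas formative stem cell cultures are known to be kept in low activin with inhibitors of WNT and retinoic acid signalling.

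Total counts ran from 7753188 to 15916800 in FS samples and from 9510145 to 11740260 at E5.5. Levels below are CPM, each count per library size after TMM scaling, and 3 counts, the floor used for bounds, equal 0.171 to 0.355 CPM in these samples. Loci that resemble ribosomal RNA took 22.1% ± 1.79 (SD) of the counts in FS samples and 26.9% ± 0.863 at E5.5. At least 5 counts were found for 16521 ± 747 genes in FS samples and 15421 ± 289 at E5.5. The groups did not overlap in either measure, and each exact permutation test gave a two-sided p of 0.0238, the smallest that 6 against 3 samples allow. Over all genes tested, log2 CPM of the FS samples correlated with the E5.5 mean at a Pearson r of 0.922 to 0.934, against 0.982 to 0.986 for each E5.5 embryo with the mean of the other embryos. These correlations are across genes, which share depth and library and are not replicates. Xist, the RNA that coats the inactive X chromosome, was at 721, 533 and 272 CPM in line 1 and below 1 CPM in line 2, and at 18, 0.918 and 714 CPM in the embryos. Ddx3y, on the Y chromosome, was at 64, 56 and 0 CPM in the same embryos, so the lines and the embryos each held both patterns.

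Markers of pluripotent and postimplantation cells were read first. Pou5f1, the transcription factor that defines pluripotent cells, was at 353 to 482 CPM in FS samples (median 387) and at 618, 582 and 639 CPM in the embryos. Dnmt3b, the de novo DNA methyltransferase of the early postimplantation epiblast, was at 1211 CPM or more in every FS and E5.5 sample. Both genes were expressed in every sample of both groups.

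A large share of the transcriptome differed. The two-sided quasi-likelihood test of edgeR called 7276 of 16614 genes (43.8%) at a Benjamini-Hochberg adjusted p under 0.05, the threshold meant throughout. Higher levels in FS cells were called for 3828 genes (23.0%) and lower levels for 3448 (20.8%). A difference shown to exceed 2-fold was called for 1781 genes (10.7%), 1127 higher (6.78%) and 654 lower (3.94%). The FS and E5.5 samples did not overlap for 6798 genes (40.9%), and 6108 genes (36.8%) were both called and free of overlap. For 3448 genes (20.8%) all 6 FS samples lay outside the range of all 9 epiblasts from E5.0 to E6.0. These percentages are the background for the counts of gene groups that follow. The 2 FS lines differed from each other at 437 genes (2.63%), and 236 of the 7276 called genes were among them.

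Gene classes differed in direction. Long noncoding genes were higher in 253 of 953 cases and lower in 83, with a median log2 change of 0.67. Pseudogenes went the other way, with 63 of 864 higher and 230 lower and a median of -0.40. Reads of pseudogenes may be split with their parent genes, and the long noncoding class includes antisense genes, which are uncertain without strand. The values of both classes carry this limit. Protein-coding genes were nearly even, at 3334 higher and 3062 lower of 13636. The median over all genes was 0.08.

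**Figure D1:**
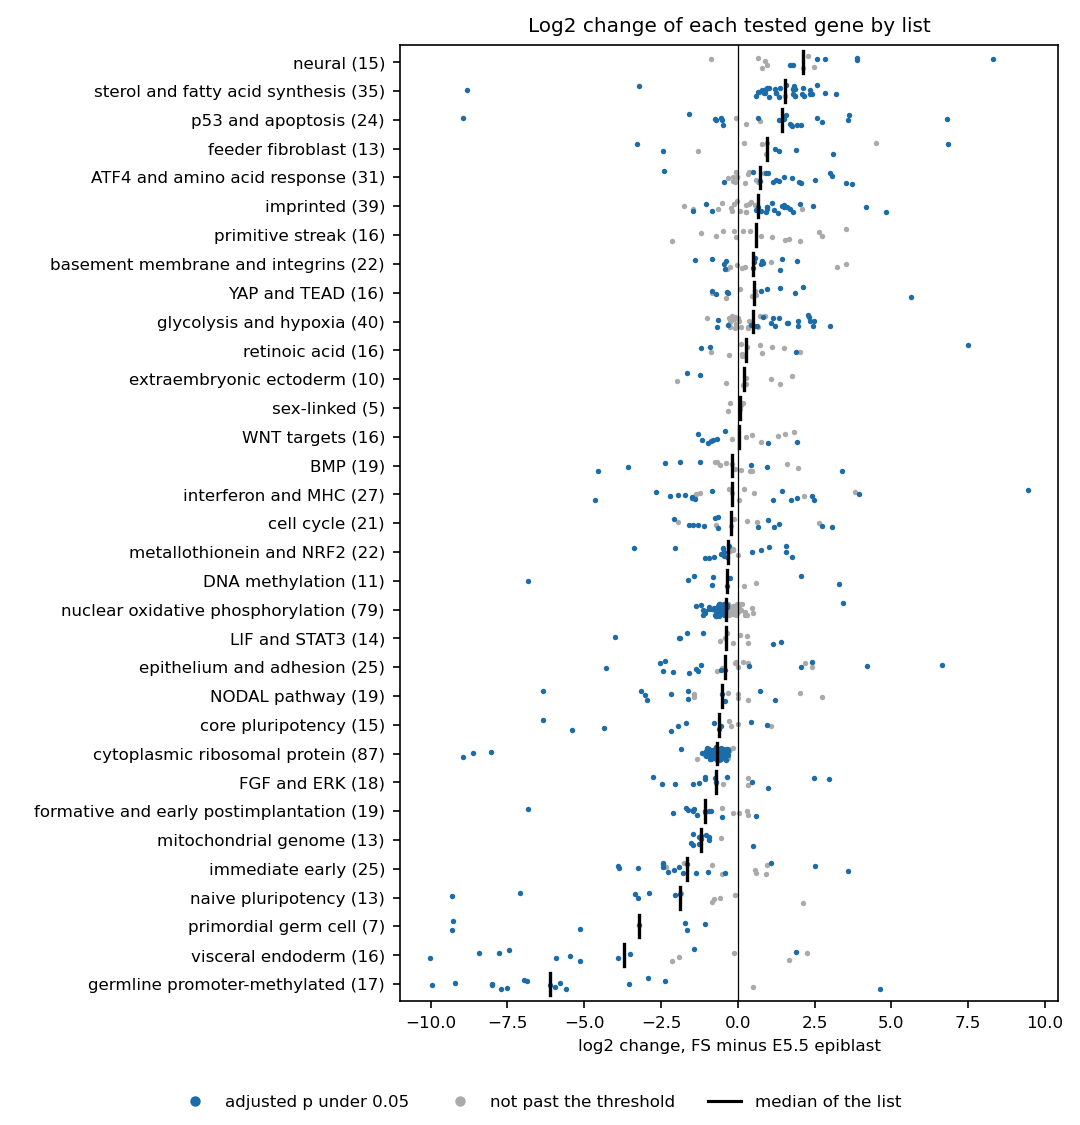
Log2 change (FS minus E5.5, horizontal axis) of each tested gene in the gene lists, 1 row per list with the number of genes tested in parentheses; blue points had an adjusted p under 0.05, grey points did not, and the black bar is the list's median. Sterol synthesis and neural genes lie mostly to the right, and germ cell, visceral endoderm, naive and ribosomal protein genes mostly to the left.

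The genes with the largest increases were also of varied known roles. Zeb2, a repressor of epithelial genes, was at 41.6 to 60.5 CPM in FS samples (median 48.4) and at 0.226, 0.459 and 0.747 CPM in the embryos. Its log2 change was 6.64 ± 0.37 (SE, adjusted p 7.74e-12), and no FS sample came near an embryo. Dpysl2, a regulator of microtubules in growing axons, was at 112 to 162 CPM (median 138) against 10.9, 4.48 and 6.07 CPM, a log2 change of 4.26 ± 0.25 (2.23e-11). Nefm, a neurofilament subunit, was at 79.7 to 228 CPM (median 120) against 5.54, 6.88 and 5.79 CPM, a log2 change of 4.49 ± 0.61 (2.66e-05). The cell adhesion gene Nrcam was higher by 5.53 ± 0.66 on the log2 scale and the adhesion gene Sdk2 by 5.67 ± 0.70. Txnip, which binds thioredoxin and limits glucose uptake, was at 83.6 to 199 CPM (median 137) in FS samples and at 3.28, 3.44 and 4.57 CPM in the embryos, a log2 change of 5.25 ± 0.54 (9.82e-07). The actin-associated genes Cald1 and Palld were higher by 3.25 ± 0.63 and 2.99 ± 0.35, and Fstl1, which encodes a secreted follistatin-like protein, by 3.28 ± 0.18.

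Some of these genes had no count in any E5.5 embryo, so that a bound stands in for the fold. Ccl19, a chemokine, was at 10.4 to 16.8 CPM in FS samples, at least 37.4-fold higher. Lix1l was at least 37.8-fold and Mctp1, a calcium-binding membrane protein, at least 34.9-fold higher. Mctp1 separated the lines, at 1.66 to 7.34 CPM in line 1 and 17.2 to 20.2 CPM in line 2. For Ano3, an anoctamin, a single count, in embryo 1, gave a ratio of 426 with a 95% counting interval of 76.3 to 16851. The homeobox gene Meis1 had 2 embryos with a count each and a ratio of 204 (56.2 to 1684). Its 6 FS samples were at 5.87 to 19.2 CPM. Cd59a, a complement regulator, was at 45.3 to 149 CPM in FS samples against 1.24, 0 and 0.0934 CPM, a log2 change of 7.65 ± 0.94 that was 10.44 without E5.5 embryo 1. Irx5, a homeobox factor, was uneven among FS samples, at 33.5 CPM in passage 10 of line 1 and 0.211 CPM in passage 13 of line 2, against 0, 0 and 0.0934 CPM (7.74 ± 1.93, 0.0038). Its change was 6.86 without passage 10 and 9.69 without E5.5 embryo 3.

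The largest decreases were in genes of varied known roles. Dppa5a, an RNA-binding protein of pluripotent cells, was at 0 to 0.245 CPM in FS samples (median 0.166) and at 101, 110 and 102 CPM in the embryos. That is a log2 change of -9.28 ± 0.39 (4.37e-13), with every FS sample at 3 counts or fewer. Dnmt3l, the cofactor of the de novo methyltransferases, was at 0.163 to 3.7 CPM (median 0.864) against 110, 232 and 209 CPM, a log2 change of -6.82 ± 0.61 (3.46e-07). The zinc finger genes Zfp600, Rex2 and Zfp980 fell by 6.85 ± 0.23, 6.43 ± 0.24 and 6.55 ± 0.28 on the log2 scale. They lie in families of near-identical copies, so their single values are uncertain. Trim25, a ubiquitin ligase, was at 0.0815 to 3.06 CPM (median 1.04) in FS samples and at 130, 113 and 123 CPM in the embryos (log2 change -6.53 ± 0.48, 2.56e-08). Slfn9, a Schlafen family gene, fell by 8.61 ± 0.34. Dusp9, an ERK phosphatase, fell by 4.15 ± 0.40. Rbmxl2, an RNA-binding gene of the testis, had no count in any FS sample and was at least 69.7-fold lower. The nuclear receptor gene Nr1h5 also had none, and was at 168 and 123 CPM in embryos 1 and 3 but at 0.115 CPM in embryo 2 (adjusted p 0.015, and 0.0573 with FS line 1 alone). Its fitted log2 change was -12.30 without embryo 1 and -13.56 without embryo 2.

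For some of these genes the change within the embryo is set beside the FS values. Between E5.5 and E6.0 the log2 change was -3.86 for Zfp600 (adjusted p 1.49e-09), -3.69 for Rex2 (9.54e-09), -3.43 for Dppa5a (2.74e-06), -3.37 for Dnmt3l (0.00679) and -2.24 for Dppa4 (0.0136). Trim25 and Slfn9 did not pass there, at -0.45 (0.639) and -0.67 (0.124). Both comparisons use the same E5.5 embryos, so high E5.5 values enter both and nothing is read from their shared direction. The E6.0 means were 8.28 CPM for Zfp600, 9.66 for Dppa5a and 17.6 for Dnmt3l, against FS means of 0.999, 0.151 and 1.48 CPM.

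Core pluripotency genes were mostly lower in FS cells, by widely different amounts. All 15 listed genes were tested: 2 were higher, 9 were lower and 4 did not pass, with a median log2 change of -0.62. Of the higher genes, Lin28b (0.44 ± 0.13, adjusted p 0.00864) missed the threshold without E5.5 embryo 1 (0.38, 0.0521) and with FS line 1 alone (0.27, 0.135). Pou5f1 fell by 0.62 ± 0.12 on the log2 scale (adjusted p 0.00019), a 1.53-fold difference without overlap. Sox2, its partner on DNA, was at 42.4 to 77.8 CPM (median 65.1) in FS samples against 27.8, 31 and 38.9 CPM, higher by 0.94 ± 0.23 (0.00212). Nanog was at 11.2 to 28.8 CPM (median 20.5) against 6.56, 6.66 and 15.7 CPM, with 1 embryo inside the FS range. Its log2 change of 1.07 ± 0.49 did not pass (0.0853), and without E5.5 embryo 3 it was 1.63 and did (0.0362). Utf1, a chromatin protein of pluripotent cells, was at 33.7 to 106 CPM (median 63.8) against 242, 266 and 283 CPM, a log2 change of -1.95 ± 0.26 (1.1e-05). Dppa4 and Dppa2, which act together at bivalent promoters, fell by 5.38 ± 0.45 and 4.37 ± 0.65. Without FS passage 13 the change of Dppa2 was -4.99. Dppa4 was at 0.118 to 3.8 CPM in FS samples and at 98.1, 78.5 and 66.8 CPM in the embryos. Sall4 fell by 0.77 ± 0.14 and Foxd3 by 1.67 ± 0.42.

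Naive pluripotency genes were low in both groups and lower in FS cells where they passed. Of 16 listed genes 13 were tested, with none higher, 7 lower and 6 not past the threshold, and a median of -1.90. Where the higher of the FS and E5.5 means reached 5 CPM, 4 were tested and all 4 were lower. Genes near 0 in FS cells met this cut only through the embryos, so it does not test their direction. Zfp42 (Rex1), the usual reporter of the naive state, was at 0 to 0.199 CPM in FS samples and at 11.8, 7.92 and 15.2 CPM in the embryos, a log2 change of -7.10 ± 0.54 (1.06e-09). Dppa3 (Stella), a maternal and germ cell factor, had no count in the 6 FS samples against 6.79, 9.64 and 7 CPM, at least 28.8-fold lower. Klf4 fell by 1.90 ± 0.31. Esrrb was the exception in direction, at a mean of 1.13 CPM in FS samples and 0.251 CPM at E5.5, and did not pass (2.11 ± 0.97, adjusted p 0.0834). It passed with the 9 samples alone (2.08, 0.0218) and with DESeq2 (2.19, 0.0402), and was the 1 naive gene that DESeq2 called higher.

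Of 19 genes listed for the formative and early postimplantation epiblast, 13 were lower in FS cells, 1 was higher and 5 did not pass, with a median of -1.06. Dnmt3b was at 1211 to 1958 CPM (median 1470) in FS samples and at 3953, 4352 and 4214 CPM in the embryos, a log2 change of -1.43 ± 0.15 (3.44e-07). Dnmt3a, the second de novo methyltransferase, was at 159 to 266 CPM (median 190) against 580, 659 and 579 CPM, a change of -1.61 ± 0.13 (1.38e-09). Neither enzyme overlapped between the groups. Pou3f1 (Oct6), a POU factor of the postimplantation epiblast, was at 39.6 to 80.8 CPM (median 53.9) against 163, 133 and 165 CPM (-1.45 ± 0.18, 1.35e-06). Sox3 fell by 1.32 ± 0.17. Grhl2, a regulator of epithelial enhancers, was at 18 to 28.5 CPM (median 23.3) against 88.5, 125 and 92.3 CPM (adjusted p 9.96e-11). The estimates for Fgf5, Otx2 and Zic2 were smaller than the list median in size. Fgf5 was at 56.2 to 126 CPM (median 86.9) against 55.8, 73.1 and 77.9 CPM, overlapping, with a log2 change of 0.33 ± 0.23 (0.247). Otx2, the homeobox factor that drives exit from the naive state, was at 58.4 to 114 CPM (median 92) against 116, 135 and 125 CPM, a change of -0.51 ± 0.20 that passed narrowly (0.0464). Its adjusted p ran from 0.0144 to 0.124 over the alternatives, and the call ended without FS passage 10 (-0.41, 0.084), 11, 12 or 16 or without any 1 embryo. Zic2 did not pass at 0.04 ± 0.17, and Sox11 was the 1 gene higher, by 0.58 ± 0.11.

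**Figure D2:**
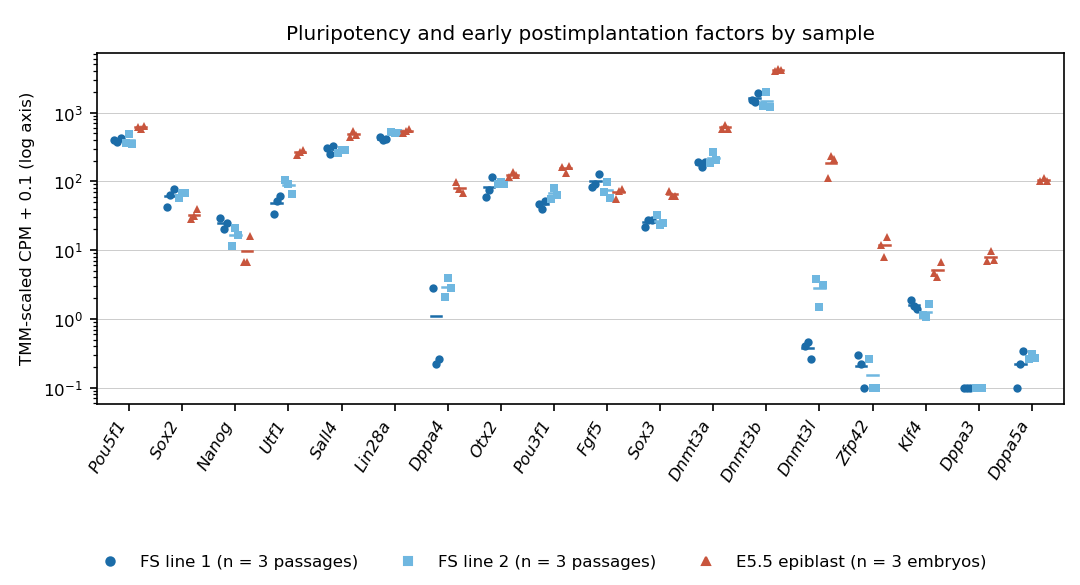
TMM-scaled CPM plus 0.1 on a log axis of pluripotency and early postimplantation factors, 1 point per sample; dark circles and light squares in blue are FS lines 1 and 2 (3 passages each), red triangles the 3 E5.5 embryos, and short bars the mean of each line and of the embryos. Pou5f1, Sox2, Nanog, Otx2 and Fgf5 lie close to or among the embryos, whereas Dppa4, Dnmt3l, Zfp42, Dppa3 and Dppa5a lie far below them, at 3.8 CPM or less in every FS sample.

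In the NODAL pathway the ligand Nodal, its co-receptor Tdgf1 and the inhibitor Smad7 were lower in FS cells. Of 22 listed genes 19 were tested: 2 higher, 9 lower and 8 not past the threshold. Nodal itself was at 0.456 to 5.96 CPM (median 2.64) in FS samples and at 18.8, 16.1 and 28.7 CPM in the embryos, a log2 change of -2.95 ± 0.65 (0.00168). Tdgf1 (Cripto), the co-receptor that NODAL but not activin needs, was at 0.236 to 3.58 CPM (median 1.3) against 62.2, 139 and 174 CPM, a change of -6.33 ± 0.68 (2.67e-06). No FS sample reached an embryo for either gene. The target and inhibitor Smad7 was at 6.21 to 32.8 CPM (median 13.1) against 142, 124 and 140 CPM (-3.03 ± 0.45, 6.04e-05), and Skil, a SMAD co-repressor, fell by 1.63 ± 0.15. Lefty1 and Lefty2, secreted NODAL antagonists, were low in both groups. Lefty1 overlapped and did not pass (-1.41 ± 1.38, 0.431), and Lefty2 passed at -3.15 (0.0288) but was at -1.71 without E5.5 embryo 3 (0.35). It also missed the threshold without FS passage 12, 13 or 16 (0.0537, 0.0505 and 0.058). Smad3, an intracellular effector, was higher by 1.19 ± 0.19 (2.23e-05) and the receptor Acvr2a by 0.74 ± 0.21. Without E5.5 embryo 2 the change of Acvr2a was 0.56 and missed the threshold (0.0692). Smad2 and Smad4 were at 0.01 and 0.02 and did not pass. The ligand Gdf3 separated the FS lines, at 0.0815 to 0.591 CPM in line 1 and 5.6 to 6.44 CPM in line 2 against 12.3, 16.5 and 15.6 CPM in the embryos.

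FGF and ERK feedback genes were mostly lower. All 18 listed genes were tested, with 4 higher, 10 lower and a median of -0.70. The ligand Fgf4 was at 7.83 to 31.9 CPM (median 20.5) in FS samples and at 68.1, 80.9 and 92 CPM in the embryos, a change of -2.06 ± 0.30 (2.15e-05). Of the genes that ERK induces, the phosphatase Dusp4 was at 7.67 to 27.1 CPM (median 17.5) against 123, 106 and 122 CPM (-2.76 ± 0.26, 1.31e-07). Spry4, a Sprouty inhibitor of receptor signalling, was at 7.24 to 19.3 CPM (median 10.6) against 62.2, 64.7 and 72.2 CPM (-2.47 ± 0.30, 3.4e-06). The ETS factors Etv5 and Etv4 fell by 1.46 ± 0.17 and 1.06 ± 0.24, and Dusp6 by 0.70 ± 0.16. The 4 genes that were higher were 3 receptors and Spred1, an inhibitor of the pathway (0.97 ± 0.20). Fgfr1 was higher by 0.48 ± 0.11, Fgfr3 by 2.96 ± 0.70 and Fgfr2 by 2.47 ± 0.87 (0.0307). Fgfr2 overlapped between the groups, was at 28.7 to 52 CPM in line 1 and 5.49 to 18.2 CPM in line 2, and did not pass with line 2 alone (1.27, 0.251). The call also ended when any 1 embryo (adjusted p 0.0723 without embryo 2 to 0.106 without embryo 3), passage 11 (0.0521) or passage 18 (0.0538) was left out.

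WNT and BMP genes were called in both directions. Of 18 WNT genes 16 were tested, 2 higher and 7 lower, with a median of 0.05. Over the alternatives the median ran from -0.78 to 0.22 and the count of higher genes from 0 to 2. Lef1, a WNT-responsive transcription factor, was at 46.6 to 95.2 CPM (median 59.9) in FS samples and at 122, 113 and 130 CPM in the embryos (-0.88 ± 0.21, 0.00175). Axin2, the standard feedback target, fell by 1.17 ± 0.36 (0.0143). Passage 10 of line 1, at 28.6 CPM, lay within the embryos' 23.4 to 36 CPM, and the change was -1.07 without E5.5 embryo 3 (0.0614) and -1.08 without embryo 1 (0.0543). Tcf7 and Ccnd1 fell by 0.79 ± 0.13 and 1.31 ± 0.25, while Nkd1 and Tnfrsf19 were higher by 0.99 ± 0.30 and 1.92 ± 0.71. Nkd1 was at 0.81 without E5.5 embryo 3 (0.0712) and Tnfrsf19 at 1.45 without FS passage 10 (0.0737). The Tnfrsf19 call also ended without passage 11 (0.0595) or without embryo 1, 2 or 3 (0.0961, 0.119 and 0.0924). Of 19 BMP genes, 3 were higher and 5 lower, and the share called (42.1%) was near that of all genes (43.8%). Of the lower genes, Id1, an inhibitor of differentiation, was at 0.951 to 2.39 CPM (median 1.86) against 12.7, 27.4 and 25.6 CPM (-3.58 ± 0.36, 6.27e-08). Id2 and Id3 fell by 1.89 ± 0.29 and 2.36 ± 0.42, and the homeobox target Msx1 by 4.56 ± 0.64 (3.94 without E5.5 embryo 3). Smad5, an effector, was higher by 0.96 ± 0.14. Bmp7 and Bmpr2 were higher by 3.39 ± 1.08 (0.0178) and 0.42 ± 0.14 (0.0143), and both missed the threshold without E5.5 embryo 3 (0.0739 and 0.0775). Bmp7 also missed it without embryo 1 (0.0682) and Bmpr2 without embryo 2 (0.0515). The count of higher BMP genes ran from 1 to 4 over the alternatives.

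Of 21 retinoic acid genes 16 were tested, 2 higher, 2 lower and 12 not past the threshold. The receptors Rara and Rarg fell by 1.19 ± 0.13 and 0.91 ± 0.11. Meis1, a known target, was higher as given above. Cyp26a1, the enzyme that clears retinoic acid and is itself induced by it, was at 2.36 to 10 CPM in line 1, at 0 to 2.28 CPM in line 2 and at 3.39, 1.26 and 0.84 CPM in the embryos, and did not pass (1.12 ± 1.15, 0.456).

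**Figure D3:**
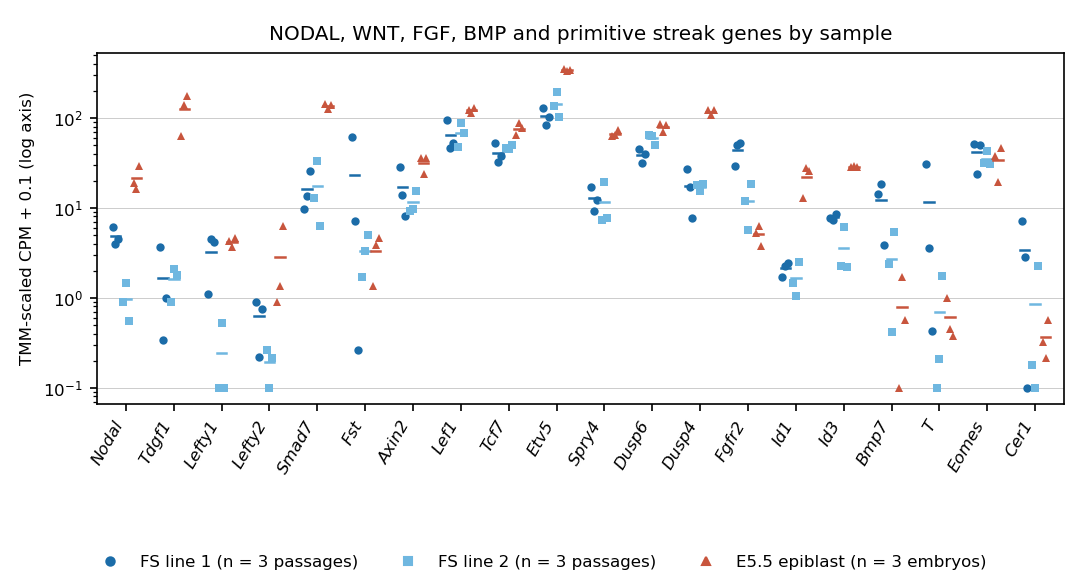
TMM-scaled CPM plus 0.1 on a log axis of NODAL, WNT, FGF, BMP and primitive streak genes, 1 point per sample; dark circles and light squares in blue are FS lines 1 and 2, red triangles the E5.5 embryos, and short bars the mean of each line and of the embryos. Nodal, Tdgf1, Smad7, Etv5, Spry4, Dusp4 and the Id genes lie below the embryos in every FS sample, whereas Eomes and T overlap with them.

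Markers of gastrulation did not separate the groups in edgeR with all samples. Of 18 primitive streak genes 16 were tested and none passed in either direction (edgeR, adjusted p under 0.05), and none had groups without overlap. At an unadjusted p under 0.05 there was 1 higher and 0 lower, and DESeq2 called 2 higher, T among them, and 0 lower. Over all alternatives the calls ran from 0 to 2 in each direction. The list median was 0.59 and ran from -0.88 to 1.61. Wnt3, a streak ligand, had the lowest adjusted p in edgeR (2.01 ± 0.87, 0.0676). Eomes was at 23.6 to 51.3 CPM (median 37.1) in FS samples and at 37.6, 19 and 45.6 CPM in the embryos (0.16 ± 0.39, 0.762). T (Brachyury), the mesoderm factor, was at 30.5 CPM in passage 10 of line 1, 3.43 CPM in passage 11 and 0 to 1.65 CPM in the other FS samples, against 0.905, 0.344 and 0.28 CPM. Its log2 change of 3.53 ± 1.85 did not pass (0.136), and with line 1 alone it was 4.49 (0.0477). Cer1 and Foxa2, of the anterior streak and endoderm, were highest in the same passage, at 7.06 and 10.8 CPM.

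Among neural genes every call was an increase in FS cells. All 15 listed genes were tested: 7 were higher, none was lower and 8 did not pass, with a median of 2.12. Ncam1, a neural cell adhesion molecule, was at 33.3 to 61.8 CPM (median 42.5) in FS samples and at 2.83, 3.9 and 2.43 CPM in the embryos, a change of 3.87 ± 0.31 (2.1e-09). Sox1, the earliest marker of neural plate, was at 2.01 to 35.1 CPM (median 12) against 1.7, 1.15 and 0.467 CPM (3.88 ± 0.88, 0.00177). The lowest FS sample, passage 13 of line 2, was close to the highest embryo. Nes (nestin) and Tubb3 (neuronal tubulin) were higher by 1.81 ± 0.14 and 2.58 ± 0.27. Hesx1, of the anterior neural plate, had no count in the embryos and was at 0.106 to 13 CPM in FS samples (adjusted p 0.0152). Pax6, which marks the neural plate once it forms, did not pass (0.65 ± 0.90, 0.582) and overlapped.

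Of 25 epithelium and adhesion genes, 5 were higher and 11 lower, beside 23.0% and 20.8% of all genes. Cdh1 (E-cadherin) was at 151 to 320 CPM (median 217) in FS samples and at 609, 590 and 592 CPM in the embryos (-1.36 ± 0.17, 2.54e-06). Cdh2 (N-cadherin) was at 52.9 to 61.1 CPM (median 54.2) against 13.8, 8.61 and 8.87 CPM (2.42 ± 0.31, 5.63e-06). Both cadherins were without overlap, and Cdh1 stayed above 150 CPM in every FS sample. Zeb1, with Zeb2 a repressor of Cdh1, was at 33.6 to 53.7 CPM (median 42.2) against 2.15, 1.84 and 2.89 CPM (4.20 ± 0.35, 5.73e-09), and the intermediate filament gene Vim was higher by 2.05 ± 0.23. The tight junction genes Cldn4, Cldn6 and Cldn7 fell by 4.28 ± 0.52, 2.12 ± 0.37 and 2.54 ± 0.60, and Epcam by 0.40 ± 0.15. Among 22 basement membrane and integrin genes tested, 9 were higher and 5 lower, and without E5.5 embryo 3 these were 5 and 3. With FS line 1 alone 2 were lower. The laminin chain Lama1 was higher by 1.94 ± 0.60 (1.63 and not past the threshold without E5.5 embryo 3) and Sparc by 1.44 ± 0.35, and the laminin receptor subunit Itga3 fell by 1.40 ± 0.25.

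Germ cell genes were lower in FS cells with few exceptions. The list holds 19 genes known to be silenced by promoter methylation in the embryo, of which 17 were tested: 15 were lower, 1 was higher and 1 did not pass, with a median of -6.10. Of the 15, 14 also passed the 2-fold test. Sycp1, of the synaptonemal complex that pairs chromosomes in meiosis, had no count in any FS sample and was at 8.94, 5.28 and 22.4 CPM in the embryos, at least 45-fold lower (fitted log2 change -9.96, and -9.17 without embryo 3). Ddx4 (Vasa), the germ cell RNA helicase, was at 0 to 0.528 CPM (median 0.242) against 13.6, 18 and 17.8 CPM (-5.96 ± 0.45, 1.02e-09). Hormad1, a meiotic chromosome axis protein, had counts in 1 FS sample, at 0.161 CPM, against 5.88, 6.77 and 13.1 CPM, a ratio of 312 with a counting interval of 85.4 to 2589. Dazl, a germ cell translation regulator, gave a ratio of 360 (98.8 to 2989), and Sohlh2, a factor of early germ cells, was at least 26.7-fold lower.

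Part of this group was still detected in FS cells. Sycp3 was at 0.118 to 4.01 CPM in FS samples against 11.7, 9.64 and 11.6 CPM (-2.37 ± 0.60, 0.00355), and Rnf17 at 0.118 to 5.28 CPM against 24.3, 33.3 and 34.3 CPM (-3.54 ± 0.50). Tuba3a and Tuba3b fell as well, but as near-identical copies their single values are uncertain. Tdrkh, which encodes a Tudor protein of the piRNA pathway, was the gene that went the other way, at 53.1 to 84.7 CPM (median 73.1) against 1.92, 2.98 and 3.55 CPM (4.64 ± 0.30, 1.25e-10). In the embryos Hormad1 was higher at E5.0 (mean 35.7 CPM) than at E5.5 and lower at E6.0 (1.72 CPM), and both steps passed (adjusted p 0.0107 and 0.0132). The members did not share 1 course in the embryo. Sycp1 was higher at E5.5 than at E5.0 (4.50, 0.0153), and the E5.0 to E5.5 and E5.5 to E6.0 steps of Ddx4, Sycp3, Rnf17 and Tdrd1 did not pass. In AF and AFX cells Hormad1 had no count and the Ddx4 means were 0.113 and 0.1 CPM. Sycp3 was at 0.176 to 0.371 CPM in AF cells but 10.7 to 38.8 CPM in AFX cells, and Rnf17 at 0.352 to 1.02 CPM and 11.4 to 22 CPM.

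The start regions of 3 of these genes are shown because the E-box CACGTG recurs in them. It is the site known to be bound by MAX and its partners, among them MGA of the complex that silences germ cell genes. Each line gives the 250 bases before the RefSeq start on GRCm38.p6, 5′ to 3′ along the gene, with CACGTG in capitals: Sycp1 at chr3:102936101-102936350 on the minus strand, Ddx4 at chr13:112652311-112652560 on the minus strand and Hormad1 at chr3:95559427-95559676 on the plus strand.
Sycp1: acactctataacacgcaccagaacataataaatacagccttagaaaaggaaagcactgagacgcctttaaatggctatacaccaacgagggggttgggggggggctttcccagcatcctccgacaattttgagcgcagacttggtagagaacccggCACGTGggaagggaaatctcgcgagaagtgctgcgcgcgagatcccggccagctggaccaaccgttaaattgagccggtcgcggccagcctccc
Ddx4: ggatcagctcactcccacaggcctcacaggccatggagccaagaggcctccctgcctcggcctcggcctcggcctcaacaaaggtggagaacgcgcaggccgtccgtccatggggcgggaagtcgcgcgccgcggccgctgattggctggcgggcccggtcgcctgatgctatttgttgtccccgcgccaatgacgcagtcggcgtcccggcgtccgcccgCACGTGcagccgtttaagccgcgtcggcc
Hormad1: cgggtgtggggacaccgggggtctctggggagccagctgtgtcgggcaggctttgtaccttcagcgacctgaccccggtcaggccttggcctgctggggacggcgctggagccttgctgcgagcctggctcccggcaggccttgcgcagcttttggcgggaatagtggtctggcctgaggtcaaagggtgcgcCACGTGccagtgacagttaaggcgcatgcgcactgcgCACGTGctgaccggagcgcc

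CACGTG reads the same on both strands. It was present before the start of 10 of the 16 listed germ cell genes with a window (62.5%), against 1056 of 10822 tested genes with a window (9.76%). Sycp1 and Ddx4 have 1 match and Hormad1 has 2. These matches describe the letters only, and the data hold no measure of binding or methylation at these sites.

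**Figure D4:**
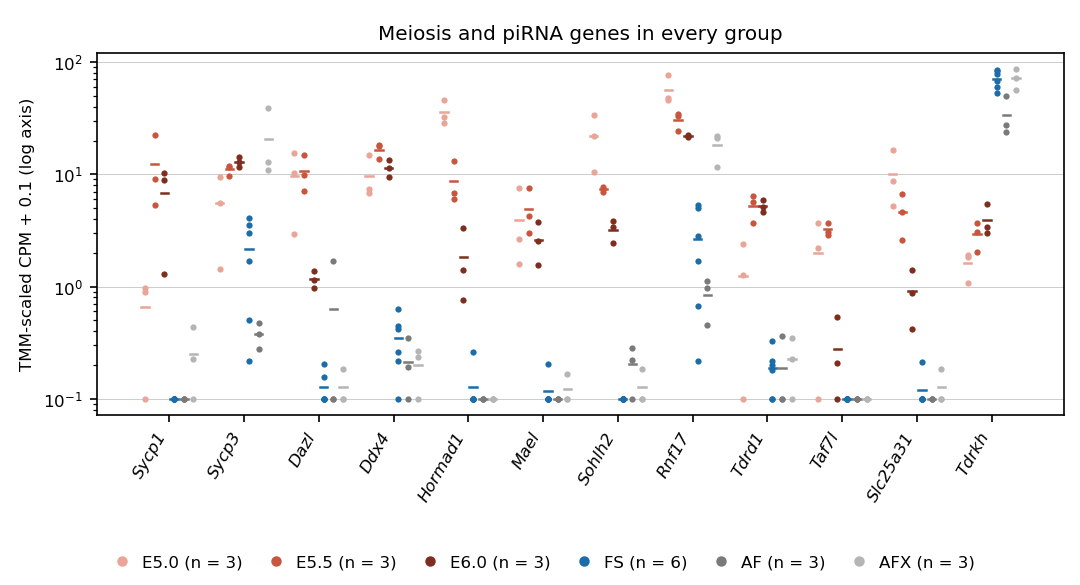
TMM-scaled CPM plus 0.1 on a log axis of meiosis and piRNA genes in every group of the study, 1 point per sample with a bar at the group mean; reds are epiblasts of E5.0, E5.5 and E6.0 (n = 3 each), blue is FS (n = 6) and greys are AF and AFX cells (n = 3 each). Sycp1, Ddx4, Hormad1, Taf7l and Slc25a31 are near 0 in the cultured groups, and Tdrkh is higher in cultured samples than in epiblasts.

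Most enzymes of DNA methylation were lower in FS cells. Of 11 genes, 2 were higher and 7 lower. Beside Dnmt3a, Dnmt3b and Dnmt3l, the maintenance factor Uhrf1 fell by 0.83 ± 0.16, Dnmt1 by 0.26 ± 0.10 and Tet1, which oxidises methylcytosine, by 0.81 ± 0.11. Tet2 was at a mean of 30.1 ± 6.02 CPM in FS samples and 7.2 ± 0.456 CPM at E5.5, higher by 2.06 ± 0.54 (0.00511). Uhrf1 also differed between the lines, with line 2 lower by 0.64 on the log2 scale (0.00572).

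All 7 primordial germ cell genes tested (9 listed) were lower. Where the higher of the FS and E5.5 means reached 5 CPM, 4 were left and all 4 were lower. Dppa3 and Dppa5a, near 0 in FS cells, met this cut only through the embryos, so it does not test their direction. The 7 genes include Dppa3 and Dppa5a, given above, and Prdm1 (Blimp1), which represses the somatic programme in germ cell precursors. Prdm1 was at 0 to 0.118 CPM in FS samples and at 2.49, 1.15 and 2.24 CPM in the embryos. Its ratio was 46.4 with a counting interval of 15.1 to 232. Tfap2c and Kit fell by 1.64 ± 0.61 and 1.07 ± 0.31.

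Genes of sterol and fatty acid synthesis were higher in FS cells with few exceptions. All 35 listed genes were tested: 32 were higher, 2 were lower and 1 did not pass, with a median log2 change of 1.55. In 27 of the 35 genes all FS samples lay outside the range of all 9 epiblasts. Hmgcs1, which makes HMG-CoA, was at 485 to 697 CPM (median 568) in FS samples and at 130, 91.7 and 119 CPM in the embryos, a change of 2.36 ± 0.17 (5.49e-10). Msmo1, a sterol demethylase, was at 152 to 220 CPM (median 190) against 27.5, 17 and 16.4 CPM (3.19 ± 0.21, 9.96e-11). These FS samples were all above every embryo. Later steps followed the same direction, with Lss at 2.41 ± 0.26, Cyp51 at 2.36 ± 0.24 and Dhcr7 at 1.37. Srebf2, the transcription factor that drives this set, was higher by 0.78 ± 0.12. Fatty acid genes were higher to varying degrees, at 1.88 ± 0.16 for the desaturase Scd2 and 0.68 ± 0.20 for Fasn. Fdps was higher by 2.58 ± 0.35 but has processed copies in the genome and is uncertain.

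The genes that went the other way were Insig1 and Scd1. Insig1, which holds the SREBP precursor in the endoplasmic reticulum and is itself a target of the pathway, was at 0 to 0.326 CPM (median 0.0528) in FS samples and at 56, 38.6 and 37.5 CPM in the embryos, a change of -8.81 ± 0.36 (4.65e-14). It was near 0 in both lines at every passage, and without FS passage 18 the change was -9.87. Scd1, a second desaturase, was at 1.3 to 13 CPM (median 7.5) against 80.9, 64.8 and 53.8 CPM (-3.23 ± 0.41, 1.17e-05). In the other cultures the Insig1 means were 43.4 CPM in AF and 96.8 CPM in AFX cells, and the Scd1 means 256 and 287 CPM. Msmo1 was at 227 and 185 CPM in those groups and Hmgcs1 at 568 and 470 CPM, beside 185 and 585 CPM in FS cells.

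**Figure D5:**
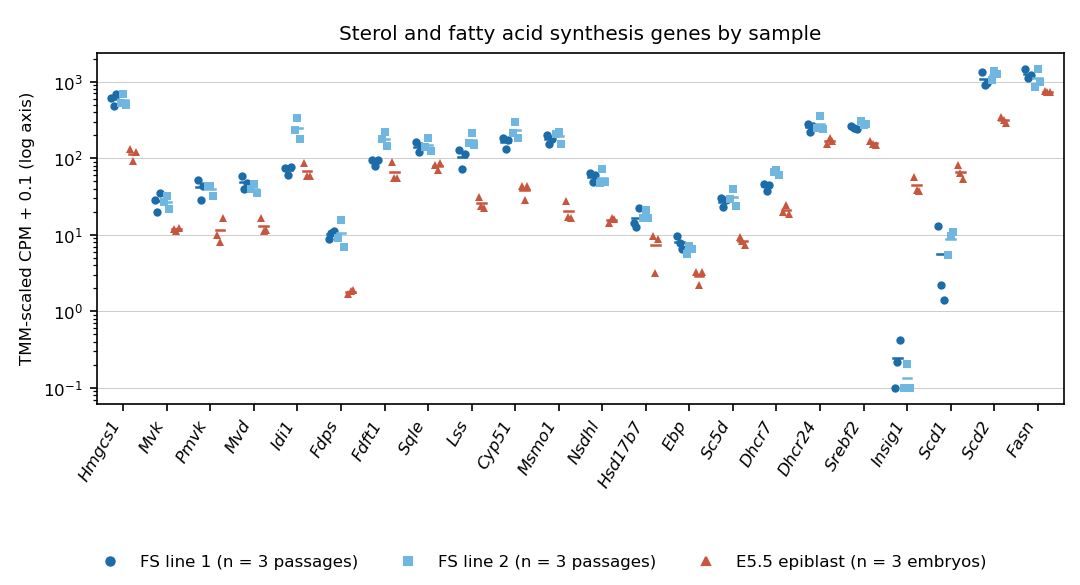
TMM-scaled CPM plus 0.1 on a log axis of sterol and fatty acid synthesis genes, 1 point per sample; dark circles and light squares in blue are FS lines 1 and 2, red triangles the E5.5 embryos, and short bars the mean of each line and of the embryos. Most FS samples lie above the embryos, and Insig1 and Scd1 lie below them.

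Start regions of 2 sterol genes are shown for their CCAAT boxes, the site known to be bound by NF-Y, which acts with SREBP factors on this pathway. Each line gives the 250 bases before the RefSeq start on GRCm38.p6, 5′ to 3′ along the gene: Hmgcs1 at chr13:119690101-119690350 on the plus strand and Msmo1 at chr8:64733579-64733828 on the minus strand. Capitals mark CCAAT, which reads ATTGG where it lies on the other strand, and in Hmgcs1 also the match to the SREBP site TCACNCCAC.
Hmgcs1: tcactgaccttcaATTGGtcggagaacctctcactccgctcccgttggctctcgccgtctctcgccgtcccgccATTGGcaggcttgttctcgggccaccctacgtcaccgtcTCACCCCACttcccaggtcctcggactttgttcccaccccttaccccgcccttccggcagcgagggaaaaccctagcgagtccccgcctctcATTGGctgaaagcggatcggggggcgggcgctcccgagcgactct
Msmo1: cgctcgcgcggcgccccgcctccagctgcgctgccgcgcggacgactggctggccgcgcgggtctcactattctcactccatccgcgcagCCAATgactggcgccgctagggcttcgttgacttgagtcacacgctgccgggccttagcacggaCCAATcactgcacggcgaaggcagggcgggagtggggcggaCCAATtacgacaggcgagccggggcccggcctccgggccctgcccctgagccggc

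Both genes hold 3 CCAAT boxes. On either strand, CCAAT was present in 19 of the 24 listed genes with a window (79.2%), against 4432 of 10822 tested genes (41%). The SREBP letters TCACNCCAC were present in 1 of the 24, Hmgcs1, against 1.31% of tested genes, and their absence says only that these letters are not in this window. The motifs do not overlap in Hmgcs1.

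Glucose transport, hypoxia and stress genes were higher in part. Of 40 glycolysis and hypoxia genes, 18 were higher, 3 were lower and 19 did not pass. The glucose transporter Slc2a3 was at 378 to 703 CPM (median 540) in FS samples and at 141, 95.6 and 91.3 CPM in the embryos (2.32 ± 0.39, 0.000184). Vegfa and Ndrg1, both known to be induced by hypoxia, were higher by 2.34 ± 0.44 and 2.47 ± 0.59. Ddit4, another such gene, was at 40.7 to 96.8 CPM (median 77.1) against 16.2, 3.67 and 6.72 CPM (adjusted p 0.000451). Of the glycolytic enzymes, Eno1 fell by 0.31 ± 0.08, and Pfkl and Hk2 were at -0.09 ± 0.13 and -0.26 ± 0.11 and did not pass. Of 31 genes tested for the amino acid response under ATF4, 16 were higher (9 without E5.5 embryo 2 and 10 with FS line 1 alone), and Nupr1 and Eif4ebp1 were lower (-2.42 and -0.44). The Eif4ebp1 call ended without embryo 1, 2 or 3 (0.0732, 0.0601 and 0.088), without passage 10, 16 or 18 (0.0552, 0.0598 and 0.0692) and with line 2 alone (0.155). The lipoprotein receptor Vldlr was at 27.4 to 57.6 CPM (median 52) against 8.82, 3.67 and 4.67 CPM (3.08 ± 0.49, 7.6e-05). The stress factor Ddit3 was higher by 3.72 ± 0.65, Asns, which makes asparagine, by 1.23 ± 0.38 and Aldh1l2, of mitochondrial folate metabolism, by 3.54 ± 0.75. The embryos were uneven for this group, with Aldh1l2 at 3.73, 0.344 and 0.28 CPM. Without E5.5 embryo 1 its change was 5.70 and that of Ddit4 3.75, and without embryo 3 that of Ddit3 was 4.81.

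Transcripts for respiration and translation were lower. Messenger RNA of the mitochondrial genome took 0.515% to 0.73% of the counts in FS samples (n = 6) and 1.12% ± 0.0854 (SD, n = 3) at E5.5, without overlap (exact permutation p 0.0238). Of its 13 protein-coding genes 11 were lower. For example, mt-Co1, a subunit of cytochrome oxidase, was at 1166 to 1722 CPM (median 1491) against 2541, 3153 and 2942 CPM (-0.95 ± 0.11, 5e-07). The exception mt-Nd6, which is coded on the opposite strand and could not be separated from its overlapping neighbour without strand, passed narrowly at 0.51 (0.0439) and not without passage 11 (0.34, 0.087), 10, 13 or 16 or without any 1 embryo. Of 79 nuclear genes for oxidative phosphorylation, 41 were lower, 37 did not pass and Atp5s was higher by 3.41 ± 0.72, with a median of -0.38. Uqcr11 and Cyc1, both of complex III, fell by 1.37 ± 0.15 and 1.21 ± 0.12. Of 87 cytoplasmic ribosomal protein genes tested, 80 were lower, none higher and 7 not past the threshold, with a median of -0.67. Rplp0, of the ribosomal stalk, was at 1261 to 1515 CPM (median 1415) against 2059, 2190 and 2109 CPM. The 3 that passed the 2-fold test were Rps4l, Rpl10l and Rpl39l, copies of Rps4x, Rpl10 and Rpl39 rather than the main genes. Rps4l was at 0.0994 to 0.57 CPM in FS samples against 166, 190 and 205 CPM (-8.95 ± 0.25, 1.8e-17), though reads of such copies may be split with their parents. The count of lower genes stayed between 72 and 82 over all alternatives. CPM are shares of the library, so these decreases are relative to all other transcripts.

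Both Myc genes, which promote growth, were lower as well. Myc was at 6.61 to 23.1 CPM (median 12.8) in FS samples and at 65.3, 50.8 and 52.9 CPM in the embryos (-2.09 ± 0.32, 5.31e-05). Mycn was at 67.2 to 135 CPM (median 89.8) against 245, 304 and 302 CPM (-1.60 ± 0.18, 7.79e-07). Neither gene overlapped. Of 21 cell cycle genes tested, 6 were higher and 8 lower. Ccne1, which drives entry into S phase, fell by 1.47 and Ccnd1 as given above, while the D-type cyclin Ccnd2 was at 33.4 to 78 CPM (median 58.3) against 6.79, 5.16 and 8.4 CPM (3.06 ± 0.48, 8.25e-05). Among 25 immediate early genes, which respond to growth factors and to handling within minutes, 3 were higher and 14 lower. Ier2 was at 17.7 to 32 CPM (median 22.1) against 70.7, 78.5 and 67.6 CPM (-1.65 ± 0.16, 4.97e-08). Egr1, a target of ERK, was at 3.02 to 7.58 CPM (median 4.31) against 85.1, 24.2 and 23 CPM (-3.24 ± 0.46), with embryo 1 standing above the others, and was at -2.34 without that embryo. Fos passed narrowly (-2.44, 0.0492) and not without E5.5 embryo 1 (0.165) or embryo 3, nor without any 1 FS passage but passage 11. The part of sample handling in these values was not tested.

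Genes of p53 and apoptosis were more often higher than lower. Of 25 listed genes 24 were tested: 14 higher, 7 lower (4 without E5.5 embryo 3) and 3 not past the threshold, with a median of 1.43. Cdkn1a (p21), the cell cycle inhibitor, was at 21.9 to 32.7 CPM (median 26.5) in FS samples and at 2.6, 3.44 and 6.16 CPM in the embryos (2.73 ± 0.36, 3.05e-06). Ccng1 was at 166 to 318 CPM (median 237) against 50.2, 63 and 77.8 CPM (1.91 ± 0.26, 8.41e-06). Trp53inp1, Zmat3 and Eda2r, further known targets, were higher by 2.05 ± 0.22, 1.35 ± 0.13 and 2.58 ± 0.54. Trp53 itself fell by 0.47 ± 0.14. Pmaip1 (Noxa), a BH3-only death factor and itself a known p53 target, was at 0 to 0.422 CPM (median 0.164) against 93.5, 62.2 and 95.1 CPM (-8.95 ± 0.35, 5.55e-14). The survival factor Mcl1, which Noxa binds, was at 78.6 to 114 CPM (median 104) against 260, 341 and 300 CPM (-1.59 ± 0.12, 7.72e-10), and Bcl2l11 (Bim) fell by 0.72 ± 0.13. In AF and AFX cells the Pmaip1 means were 1.11 and 0.0919 CPM, and at E6.0 it was 148 CPM.

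Imprinted genes were more often higher. Of 39 tested (41 listed), 20 were higher, 16 did not pass and Gab1, Jade1 and Phlda2 were lower (-1.45, -0.84 and -1.04). Without E5.5 embryo 1 Phlda2 was at -0.64 and did not pass (0.193). Peg3, paternally expressed, was at 349 to 575 CPM (median 411) in FS samples and at 149, 128 and 93.1 CPM in the embryos (1.81 ± 0.23, 4.31e-06). Rian, a maternally expressed noncoding RNA, was at 392 to 831 CPM (median 607) against 256, 248 and 286 CPM (1.19 ± 0.21, 0.000193), and its neighbour Meg3 was higher by 0.95 ± 0.31. The growth factor Igf2 was at 11.8 to 49 CPM (median 19.7) against 3.73, 2.64 and 5.98 CPM (2.46 ± 0.58, 0.00293). H19, the noncoding neighbour of Igf2 with the opposite parental expression, was at 0.0815 to 0.199 CPM in line 1 and at 17.2 to 29.3 CPM in line 2, against 42.3, 44.6 and 37.5 CPM in the embryos. The lines differed by 7.40 on the log2 scale (0.00168), and FS against E5.5 did not pass (-1.76 ± 1.02, 0.181). Peg13, Usp29, Airn and Kcnq1ot1 overlap other genes and are uncertain without strand.

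Interferon and MHC genes moved both ways. Of 27 interferon and MHC genes tested, 8 were higher (5 with FS line 1 alone) and 9 lower. The immunoproteasome subunit Psmb8 was at 0.795 to 2.01 CPM (median 1.44) in FS samples and at 17.5, 25.6 and 65.1 CPM in the embryos (-4.64 ± 0.60, 9.67e-06, and -3.90 without E5.5 embryo 3), and Irf1 fell by 2.66 ± 0.21. B2m, the light chain of MHC class I, was higher by 2.48 ± 0.40. Usp18, an interferon-induced protease, was higher mainly through line 2. It was at 0.408 to 0.596 CPM in line 1 and 16.6 to 16.9 CPM in line 2, with no count in the embryos (adjusted p 0.00588, and 0.076 with the 9 samples alone). Of 22 metallothionein and NRF2 genes, 6 were higher and 11 lower. These counts were unstable, with 1 higher without E5.5 embryo 2, 3 higher and 6 lower without embryo 3, and 7 lower without embryo 1. The metallothionein genes Mt1 and Mt2, which bind zinc, fell by 2.05 ± 0.40 and 3.39 ± 0.39. Mt2 was at 2.66 to 15.2 CPM (median 9.52) against 115, 74.4 and 75.7 CPM. Among 14 LIF and STAT3 genes, 2 were higher and 5 lower. Of the higher genes, Jak2 (1.15 ± 0.45, 0.0392) missed the threshold without E5.5 embryo 1 (0.133) or embryo 3 (0.192). Its call also ended without FS passage 10, 11 or 12 (0.0693, 0.0762 and 0.053). The target kinase Pim1 was at 2.85 to 12.9 CPM (median 4.16) against 90.9, 107 and 110 CPM (-4.01 ± 0.37, 2.06e-07), whereas Il6st (gp130), the shared receptor chain, was higher by 1.41 ± 0.26. Among 16 YAP and TEAD genes, 6 were higher and 4 lower, and the classical targets Ctgf and Cyr61 did not pass (0.56 ± 0.46 and -0.85 ± 0.44).

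Markers of other cell types were measured beside these results. Of 20 visceral endoderm genes 16 were tested, 10 of them lower in FS cells and Rbp4 higher by 1.88. Where the higher of the FS and E5.5 means reached 5 CPM, 5 were tested and 4 were lower. That cut too was met only through the embryos by genes without FS counts, and does not test their direction. The summed level of the visceral endoderm genes was 11.7 to 42.9 CPM in FS samples (median 22.3) and 96.4, 66.8 and 50.7 CPM in the embryos. Apob and Hnf4a, defining genes of that tissue, had no count in any FS sample and were at 19.5, 9.64 and 9.62 CPM and at 2.6, 2.98 and 2.52 CPM in the embryos. Cubn, which takes up nutrients in that tissue, was at 26.6, 12.2 and 3.73 CPM in the embryos (fitted log2 change -8.43, and -7.58 without embryo 1), and Afp was too low to test. Mean Apob was 109 CPM at E5.0 and 2 CPM at E6.0. The part of visceral endoderm RNA in the decreases in FS cells was not tested. Of 10 extraembryonic ectoderm genes tested (15 listed) Bmp4 and Tfap2c were lower (-1.24 and -1.64) and none was higher. Their sum was 37.9 to 60.7 CPM in FS samples against 50.7, 28 and 58.1 CPM, and Elf5, which defines that tissue, was too low to test. Of 13 feeder fibroblast genes tested (15 listed) 5 were higher (3 of 5 tested at a mean of at least 5 CPM; Acta2, Pdgfrb, Col1a1 and Fbn1, at 6.86, 3.10, 1.88 and 1.34, and Mmp2) and 2 lower, with a sum of 63.9 to 107 CPM (median 84.8) against 45.4, 39.1 and 33.4 CPM. Col1a1 was at 6.69 to 31.3 CPM against 6.67, 3.9 and 3.08 CPM (1.88 ± 0.59, 0.0164), and did not pass without E5.5 embryo 3 (1.66, 0.0786) or embryo 2 (1.75, 0.0683). Twist1 and Dcn, which fibroblasts are known for, were lower in FS samples, at 0.317 to 0.854 CPM and 0 to 0.724 CPM. The part of feeder RNA in the increases in FS cells was not tested.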

How the data were processed

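Gene counts of 21 mouse RNA samples were used as the authors deposited them, unnormalized in 1 table of 33861 genes. Trim Galore, TopHat2 2.1.0, featureCounts 1.5.0 and the mm10 build are named per the submitters' processing notes. The gene annotation and strand setting of the counting are not given in the sources used here. Gene types came from GENCODE M21, matched by identifier for 33683 genes. Samples were grouped by their labels.

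All 21 samples in 6 groups were fitted together in edgeR 4.0.16 (R 4.3.3) with TMM factors, filterByExpr, which kept 16614 genes, and the robust quasi-likelihood test of FS minus E5.5, adjusted over all genes. CPM were computed from the counts with the TMM factors. DESeq2 1.42.0 was an alternative, beside other normalizations, filters, sample sets and leaving out each sample. The filter at 5 CPM used the higher of the FS and E5.5 means. Shares of counts were compared with exact permutation tests (scipy 1.17.1). On simulated counts for FS against E5.5 (15988 genes), 51 of 100 genes changed 2-fold and 83 of 100 changed 4-fold were called, with 7 false among 141 calls. Intervals and floors cover counting error only, at the 95% level. Replicates of a group differed by more than sampling noise.

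Named genes were first the 12 largest changes in each direction at 10 CPM or more and the 8 largest at 100 CPM or more. These were without overlap between groups and left out predicted genes, pseudogenes and mitochondrial and ribosomal RNA. Up to 3 genes per list and direction at 5 CPM or more were added without these limits, so some of them overlapped. A set of named factors was added as well. Other members of the lists were named after their values were seen. The samples compared, lists and tests were chosen with earlier results of these data known. Start regions came from RefSeq on GRCm38.p6. Results for a few list members are not reported here.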

Additional observations from a re-analysis of the deposited data

Results flagged for a closer look

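Among 173 genes looked at, 13 had 1 FS sample far from the other FS samples, where chance flags about 1 group in 20, and 4 of the 13 were in passage 10 of line 1. That passage was highest for T at 30.5 CPM (others 0 to 3.43), Irx5 at 33.5 CPM (others 0.211 to 12.4), Axin2 at 28.6 CPM (others 8.07 to 15.3) and Mmp2 at 39.2 CPM (others 23.1 to 28.4). Passage 11 of line 1 was highest for Igf2 at 49 CPM (others 11.8 to 24.1) and Apoa1 at 0.709 CPM (others 0 to 0.245), and passage 18 for Insig1 at 0.326 CPM (others 0 to 0.118). In line 2, passage 12 was highest for Il6st at 35.2 CPM (others 25 to 28.5), Rb1 at 25.6 CPM (others 15.7 to 18.6) and Rpl10l at 0.161 CPM (others 0). Passage 13 was highest for Ccl19 at 16.8 CPM (others 10.4 to 11.9) and lowest for Fstl1 at 85.2 CPM (others 108 to 117), and passage 16 was the only FS sample with a count for Fmr1nb, at 0.057 CPM.

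The lines differed by the edgeR quasi-likelihood test for 11 of these genes, and so their distance from the same E5.5 embryos differed too. Line 2 minus line 1 on the log2 scale was 5.06 for Usp18, 3.45 for Trim25 and 1.85 for Ifitm3, all known interferon-induced genes. It was 3.15 for Noct, 2.18 for Mctp1, 1.56 for Sdk2, 1.24 for Fgf4, 1.10 for Sparc and 1.02 for Palld. The tight junction genes Cldn7 and Cldn6 were lower in line 2, at -2.69 and -1.44. Each line is 3 passages of 1 line.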

How the results depend on the processing

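Over all alternatives 5784 (FS line 1 alone) to 7738 (DESeq2) genes were called, against 7276, and 48.2% to 55.4% of calls were higher in FS cells. The 2-fold test gave 1037 genes at a mean of at least 5 CPM, where 11119 genes were tested, and 1417 to 1716 when 1 sample was left out. Leaving out 1 sample gave 6096 to 7019 calls, 3006 to 3692 higher and 2923 to 3331 lower. With the 9 samples alone the lines differed at 678 genes. The ribosomal RNA-like share differed by -3.3 and -6.22 percentage points with FS line 1 and line 2 alone, the mitochondrial share of counts by -0.501 and -0.492, and detected genes by 861 and 1340 (exact permutation p 0.1, the smallest that 3 against 3 allow). Leaving out 1 sample gave -5.23 to -4.3, -0.542 to -0.457 and 840 to 1242.

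Of 181 named genes, 170 were called and 30 of these lost the call under some alternative. Ddx3y ran from -0.47 to 0.65, Xist from -0.61 to 4.75 and Eomes from -0.16 to 0.44 on the log2 scale when 1 sample was left out. Ddx3y changed sign to -7.57 with line 1 alone, -3.24 with the lines separate, -0.12, -0.27 and -0.20 without passage 12, 13 or 16 and -0.47 without E5.5 embryo 3. Xist changed to -8.80 with line 2 alone, -3.87 with the lines separate, -0.61 and -0.30 without passage 10 or 11 and -0.49 and -0.58 without embryo 1 or 2. With line 2 alone Cyp26a1 was at -0.93 and Pax6 at -0.06, and Eomes was at -0.16 without embryo 2. None of these 5 genes was called with all samples. Xist passed the threshold with line 2 alone (0.0215), and the cause was not tested. The median log2 change of all genes was above 0.1 with upper quartile factors (0.112), no filter (0.109) and without embryo 1 (0.122). No paired analysis was possible because FS samples are numbered by passage and E5.5 samples by embryo and share no number. The limits are 2 lines, 3 embryos and an unknown counting strand.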
